A study of Rattus norvegicus with 18 samples.

Results

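Postnatal oxy exposure was compared with saline in the PFC of Sprague Dawley rat pups at P14. The comparison takes 12 of the 18 pups of the study, 6 in the saline group (SAL) and 6 in the postnatal group (PNO), chosen by the group named in each sample title. SAL pups were nursed by dams given the saline vehicle by oral gavage. PNO pups were nursed by dams gavaged with oxycodone at 15 mg/kg/day from parturition, so that the pups met the opioid through the milk and not through the placenta. The other 6 pups (IUO) came from dams that received oxy from before mating until weaning, at a dose raised from 10 to 15 mg/kg/day. They entered the statistical model to share its estimate of spread, and otherwise their values are only set beside those of SAL and PNO. RNA came from whole PFC tissue of single pups, so that a lower level of a gene can reflect fewer cells of a type or less RNA per cell, and these cannot be told apart. The sources used here do not tie a pup to its litter, and p-values treat the pups as independent.

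Oxycodone is an agonist of the µ-opioid receptor, which belongs, with the δ, κ and nociceptin receptors, to the family of receptors coupled to inhibitory G proteins. Activated receptors lower cyclic AMP, open inwardly rectifying potassium channels and close calcium channels, which reduces transmitter release and neuronal firing. In the second postnatal week the rat PFC is forming synapses, its interneurons are maturing and its oligodendrocytes are beginning to wrap axons in myelin.

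Expected counts summed to between 18381819 and 24518150 per SAL pup (median 23178826) and between 18547404 and 25649851 per PNO pup (median 20810530). Of 32623 genes listed, 9374 were at 0 in all 12 pups and 15703 had enough counts to be tested. Expression is in CPM, a gene's counts relative to the total of its library, with that total adjusted by TMM. The Y-linked gene Eif2s3y was at 65.1 to 85.4 CPM in 5 of 6 SAL pups and at 73.6 to 88.7 CPM in 4 of 6 PNO pups, and at most at 0.738 CPM in the others, so that the groups differ by 1 in the number of pups with a Y chromosome. The glutamate transporter of cortical pyramidal cells, Slc17a7, was present in every library, from 845 to 1930 CPM in SAL and from 1150 to 2050 CPM in PNO. In SAL replicate 6, and less so in SAL replicate 1, Cdhr1, Frmd7 and Sp8 stood far above the other pups. Values without 1 or both of these libraries are given below for many of the genes and lists.

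No gene of the 15703 tested (0.0%) separated PNO from SAL after adjustment. In edgeR's quasi-likelihood test the smallest p after Benjamini-Hochberg adjustment was 0.912, limma-voom also called 0 genes, and DESeq2 called 1, Frmd7, with an adjusted p of 0.0281. At an unadjusted p under 0.05, the same edgeR fit listed 706 genes (4.5%), 297 higher in PNO (1.89%) and 409 lower (2.6%). With a difference of at least 1.5-fold as well, 65 genes were higher (0.414%) and 130 lower (0.828%). The share of genes with a higher mean in PNO, at any p, was 50.8%, and the median log2 fold change was 0.0033. These unadjusted genes are described below as the ones that lay furthest apart, and none of them is a call. SE below is the standard error of a log2 fold change.

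The data limited the size of a difference for most genes. The standard error of the log2 fold change had a median of 0.145, and for 10384 genes (66.1%) the 95% confidence interval lay wholly within 1.5-fold in either direction. Only 543 genes (3.46%) had estimates of at least 1.5-fold at any p, 222 higher and 321 lower. Over the whole transcriptome, group membership accounted for 7.79% of the squared distance between the 12 pups, with an exact p of 0.571 over all divisions of the pups into 6 and 6.

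**Figure D1:**
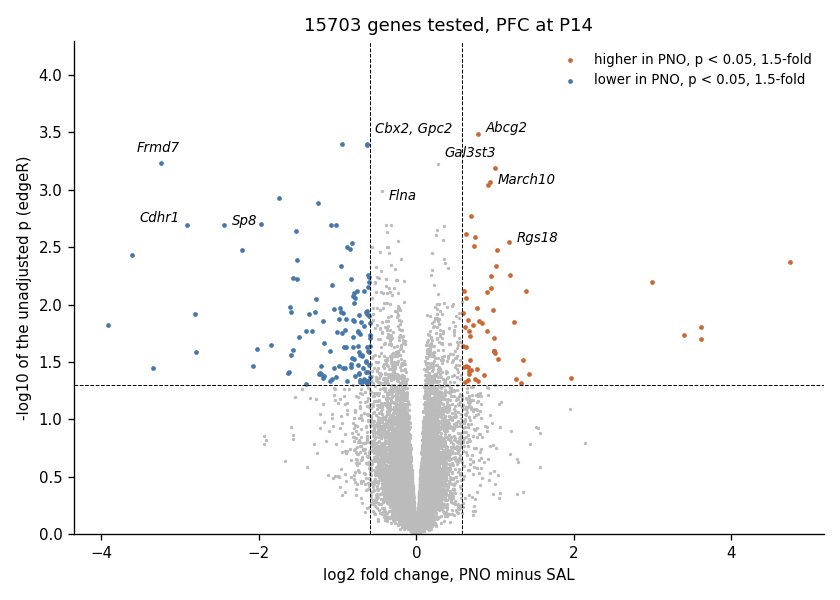
Each point is 1 of the 15703 genes, with the log2 fold change of PNO over SAL on the x axis and the −log10 of the unadjusted edgeR p on the y axis. Dashed lines mark p of 0.05 and 1.5-fold, colored points are the 65 genes higher and 130 lower past both, and the points furthest to the left include Frmd7 and Cdhr1, which were high in SAL replicate 6.

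The gene with the smallest p was Abcg2 (ENSRNOG00000007041), which encodes the efflux transporter of the blood-brain barrier that exports many drugs from the brain. Its 6 SAL pups had 4.78, 4.26, 4.40, 6.32, 6.5 and 4.0 CPM in the order of their numbers, and the 6 PNO pups 11.1, 9.49, 8.90, 5.97, 6.71 and 9.73 CPM. In PNO, 5 of 6 pups lay above every SAL pup, and only PNO replicate 4 fell within the saline range. The means were 5.04 ± 1.09 CPM in SAL and 8.66 ± 1.95 CPM in PNO (SD), a log2 fold change of 0.78 with a standard error of 0.18 and a 95% confidence interval from 0.41 to 1.15. With any 1 of the 12 pups left out the log2 fold change stayed between 0.69 and 0.87. The IUO pups ranged from 6.22 to 10.7 CPM with a median of 9.10, beside medians of 4.59 in SAL and 9.20 in PNO.

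Because Abcg2 led the comparison and is a textbook target of the aryl hydrocarbon receptor, whose response element has the core GCGTG, its promoter is shown from the RefSeq annotation of GRCr8. It lies at chr4:89075224-89075523 on the plus strand, from 250 bases before to 50 bases after the start of the gene, and capitals mark the core as found on either strand.
Abcg2: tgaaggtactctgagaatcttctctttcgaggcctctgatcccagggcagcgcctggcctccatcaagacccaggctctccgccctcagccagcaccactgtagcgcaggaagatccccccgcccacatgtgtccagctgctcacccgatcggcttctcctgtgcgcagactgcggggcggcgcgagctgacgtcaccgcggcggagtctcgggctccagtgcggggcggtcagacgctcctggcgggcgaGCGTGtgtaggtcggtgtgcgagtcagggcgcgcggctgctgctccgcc
The window holds this core once, which describes these letters and not binding by the receptor. GCGTG or its reverse complement occurs in 29.7% of the 33469 promoters of that length. Among the 10 promoters matched for the 12 genes with the smallest p among those higher in PNO it occurs in 5. It occurs in 3 of the 8 promoters matched for the genes lower in PNO with the smallest p. Lists not chosen by p also exceeded 29.7%, with 48.4% for ribosomal protein genes and 53.6% for nuclear respiratory chain genes. The share was therefore not particular to the genes higher in PNO. The Abcg2 window also holds GGGCGG, the GC box, 4 times on either strand without overlap with the capitals. Of all promoters, 33.1% hold a GC box.

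Among other genes of drug handling the groups overlapped. Of 7 tested members of the list for oxy metabolism and transport, 6 were higher in PNO and Abcg2 alone had an unadjusted p under 0.05, with a median log2 fold change of 0.25 for the list beside 0.0033 for all genes tested. Slc47a1, a multidrug extruder of the meninges and other barriers, ranged from 0.377 to 1.73 CPM in SAL and from 0.733 to 4.58 CPM in PNO (log2 fold change 0.75). Cyp3a9, of the enzyme family that N-demethylates oxycodone, had medians of 1.35 and 1.97 CPM (log2 fold change 0.27).

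There were 8 genes with every PNO pup above every SAL pup (0.0509%) and 9 with every PNO pup below (0.0573%), 17 of the 15703 in all (0.108%). March10, a ubiquitin ligase, was one of those on the higher side, from 0.984 to 1.64 CPM in SAL and from 1.88 to 3.40 CPM in PNO (log2 fold change 0.94, SE 0.23). Gal3st3, a sulfotransferase that adds sulfate to galactose on glycoproteins, ranged from 49.0 to 58.9 CPM in SAL and from 61.5 to 71.2 CPM in PNO. Its log2 fold change of 0.27 (SE 0.07) was small but the groups were fully apart, and IUO pups at 49.1 to 60.7 CPM lay near SAL. Scrn3, Golph3l and Mrrf, a ribosome recycling factor of mitochondria, also did not overlap, with log2 fold changes of 0.27, 0.14 and 0.13.

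Further genes higher in PNO with the smallest p differed by 0.20 to 1.17 on the log2 scale and overlapped between groups. Rgs18, a regulator of G protein signaling known from platelets and other blood cells, had 0.293 to 0.723 CPM in SAL and 0.524 to 1.52 CPM in PNO (log2 fold change 1.17, SE 0.34). Inpp5d, the inositol phosphatase SHIP1 of microglia and blood cells, had 16.2 to 20.7 CPM and 20.2 to 29.7 CPM (0.35, SE 0.10). Gna14, a G protein α subunit of the Gq family, had 1.01 to 2.26 CPM and 1.62 to 3.32 CPM (0.75, SE 0.21). Ndufa10, an accessory subunit of respiratory complex I, had 130.0 to 153.0 CPM and 151.0 to 178.0 CPM (0.20, SE 0.06). In each of these 4 genes every PNO pup exceeded the SAL median. Vps4b, which disassembles the ESCRT complex at endosomes, and P3h4, a collagen prolyl hydroxylase relative, differed by 0.27 and 0.34, and Tcta by 0.26. Ghdc spread widely in saline, from 2.89 to 11 CPM beside 7.67 to 17.2 CPM in PNO (1.02, SE 0.30), and Moxd1, a copper monooxygenase, had 4.51 to 8.63 CPM and 4.50 to 13.6 CPM (0.73, SE 0.21), with 1 PNO pup below all SAL pups.

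The lower side was led by Cbx2 and Gpc2, both with full separation. Cbx2 (ENSRNOG00000049215), a chromatin-binding subunit of Polycomb repressive complex 1, had 6.79, 5.35, 5.51, 6.05, 6.08 and 5.69 CPM in the SAL pups and 3.61, 5.27, 3.56, 3.62, 3.20 and 3.69 CPM in the PNO pups. Only PNO replicate 2 came near the saline range. The log2 fold change was -0.63 (SE 0.14, 95% confidence interval from -0.93 to -0.32), and it ran from -0.74 to -0.58 with each pup left out in turn. Gpc2 (ENSRNOG00000001367), a glypican of the surface of growing neurons, had 7.92, 4.51, 5.2, 4.88, 4.44 and 6.43 CPM in SAL and 3.68, 2.74, 3.56, 3.91, 3.62 and 4.17 CPM in PNO. Its log2 fold change was -0.62 (SE 0.14), and -0.49 at the least extreme with a pup left out. Its highest SAL values were in SAL replicates 1 and 6, and the fit without both is not reported here for Gpc2 or Cbx2. For Gpc2 the other SAL pups, at 4.44 to 5.2 CPM, still lay above every PNO pup. Flna, filamin A, which crosslinks actin and is needed for neurons to migrate, ranged from 103.0 to 140.0 CPM in SAL and from 74.1 to 107.0 CPM in PNO (-0.43, SE 0.11), with 5 of 6 PNO pups below all SAL pups.

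**Figure D2:**
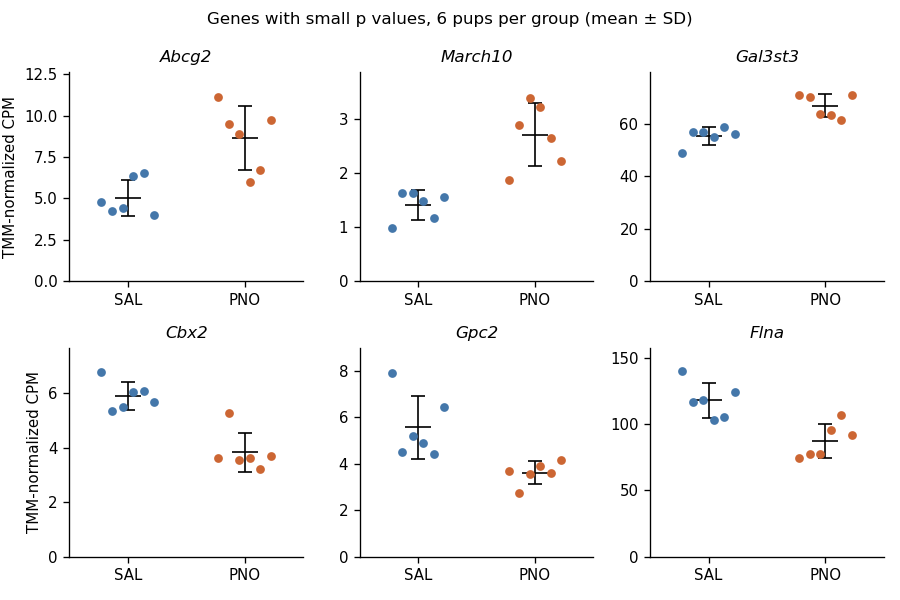
Points are pups in the order of their replicate numbers, with mean and SD as bars, and the y axis gives TMM-normalized CPM from 0. All 6 PNO pups lie above the SAL pups for March10 and Gal3st3 and below them for Cbx2 and Gpc2, while 1 PNO pup falls within the SAL range for Abcg2 and Flna.

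Dusp23, Helz2, Leng8 and Slc38a6 were also fully separated on the lower side, with log2 fold changes of -0.50, -0.46, -0.35 and -0.31. Leng8 was the most abundant of them, at 260.0 to 320.0 CPM in SAL and 179.0 to 255.0 CPM in PNO. Dll4, the Notch ligand of sprouting endothelial cells, ranged from 5.11 to 6.04 CPM in SAL and from 3.68 to 5.24 CPM in PNO (-0.38, SE 0.11), and Klhl17, the actin-binding protein actinfilin of synapses, from 19.2 to 25.1 CPM and from 15.8 to 19.4 CPM (-0.32, SE 0.09). For these genes the log2 fold change kept its sign with any pup left out.

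Many of the other lower genes had their highest values in 1 or 2 saline libraries and a smaller difference without them. Cdhr1, a cadherin known from photoreceptors and from mitral and tufted cells of the olfactory bulb, was at 659 CPM in SAL replicate 6 and 102 CPM in SAL replicate 1, while the other 4 SAL pups had 14.5 to 23.0 CPM and the PNO pups 14.4 to 24.8 CPM. Its log2 fold change of -2.91 (SE 0.81) was -0.92 without SAL replicate 6 and 0.04 with both left out. The T-box factors Tbx21 and Eomes, which the same bulb neurons use, and Doc2g, chosen after their values were seen, were at 21.2, 20.6 and 18.9 CPM in SAL replicate 6. Tbx21 was at most at 0.261 CPM in every PNO pup and Eomes at most at 0.608 CPM. Dcx, the microtubule protein of migrating neuroblasts, reached 539 CPM in that library beside 112 to 200 CPM in the other SAL pups and 77.7 to 188.0 CPM in PNO.

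Further genes on the lower side were high in the same libraries. Sp8, a zinc finger factor of interneurons bound for the olfactory bulb, had 15.8 CPM in SAL replicate 6, 0.502 to 5.01 CPM in the other SAL pups and 0.264 to 1.52 CPM in PNO (-2.45, SE 0.68). Dlx1 and Dlx2, homeodomain factors that specify forebrain interneurons, had log2 fold changes of -1.07 (SE 0.35) and -1.51 (SE 0.46). Without SAL replicate 6 these were -0.59 and -0.89, and without SAL replicates 1 and 6 they were -0.25 and -0.53. Frmd7, a protein of neurite outgrowth, had 31.9 CPM in SAL replicate 6 and 6.42 CPM in SAL replicate 1, beside 0.794 to 1.72 CPM in the rest of SAL and 0.489 to 1.22 CPM in PNO. Its log2 fold change of -3.25 became -1.59 without SAL replicate 6 and -0.73 without both. Prokr2, the prokineticin receptor needed for growth of the olfactory bulb, went from -1.97 to -1.12 and -0.89 in the same steps, and Igfbpl1 from -1.25 to -1.06 and -0.68. With both libraries left out, the log2 fold change of Gipr, a hormone receptor, went from -1.02 to -0.57 and that of Zfp663 from -1.53 to -0.63.

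SAL replicate 6 was the highest of the 12 pups in 82 of the 130 genes that were lower in PNO at an unadjusted p under 0.05 and 1.5-fold, and the lowest in 27 of the 65 that were higher. Without that library 64 genes were lower and 53 higher, of which 52 and 34 were among the genes listed with all pups. Without SAL replicates 1 and 6 together, 43 genes were lower and 65 higher. Leaving out PNO replicate 1 gave 271 lower and 88 higher, and leaving out SAL replicate 4 gave 198 lower and 181 higher. Without PNO replicate 5, 134 were lower and 128 higher, without SAL replicate 2, 160 and 100, and without PNO replicate 3, 120 and 101. With the score of a marker list as a covariate, the counts were 53 higher and 113 lower for myelin, 69 and 130 for striatal neurons, and 60 and 143 for choroid plexus.

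**Figure D3:**
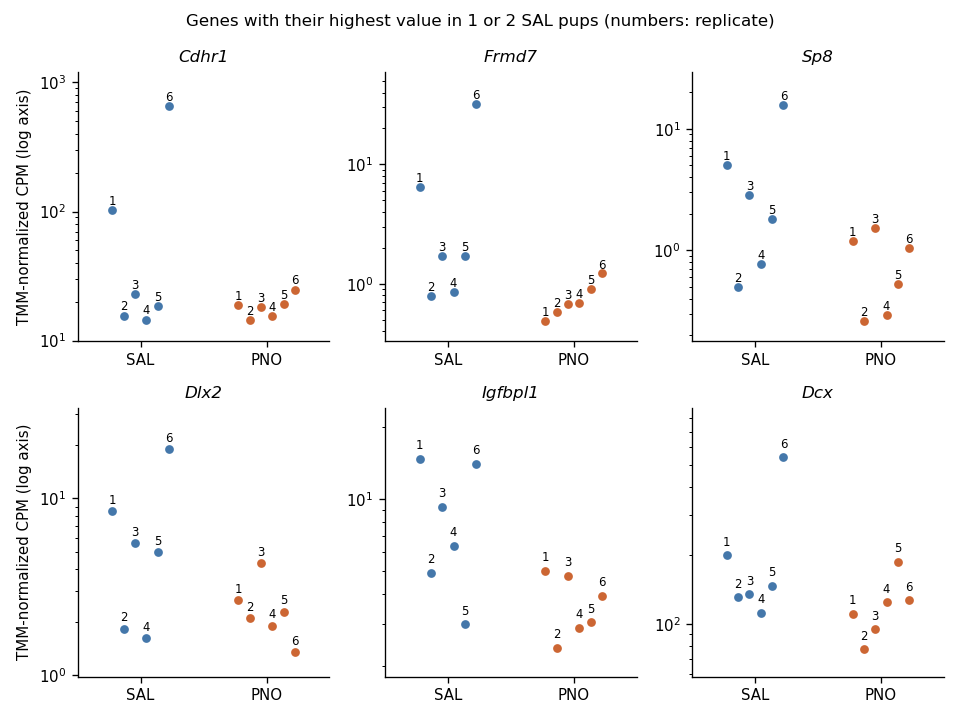
Each panel gives TMM-normalized CPM on a log axis for the 12 pups, labelled with their replicate numbers. SAL replicate 6 is highest for Cdhr1, Frmd7, Sp8, Dlx2 and Dcx, and SAL replicate 1 is highest for Igfbpl1, at 14.7 CPM beside 14.1 CPM in SAL replicate 6.

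The opioid receptors and their peptides did not separate the groups. Of 8 members tested, 4 were higher and 4 lower in PNO, 0 had an unadjusted p under 0.05, and the median log2 fold change was 0.01. The median was 0.23 without SAL replicate 1 and -0.33 without PNO replicate 1. The µ, δ and κ receptors were scarce. Oprm1, the µ receptor on which oxycodone acts, ranged from 0.318 to 2.06 CPM in SAL and from 0.293 to 2.33 CPM in PNO, and its log2 fold change of -0.06 had a 95% confidence interval from -1.18 to 1.06, which holds differences of 1.5-fold in either direction. The δ receptor Oprd1 (-0.36, interval from -1.13 to 0.42) and the κ receptor Oprk1 (0.08, interval from -0.76 to 0.92) were also below 10 CPM in every SAL and PNO pup. Oprl1, the nociceptin receptor, was the most abundant of the receptors at 26.5 to 38.1 CPM in SAL and 23.4 to 44.5 CPM in PNO (0.14, interval from -0.17 to 0.45). On the length-normalized TPM scale its medians were 16.8 and 17.2, above 0.575 and 0.290 for Oprm1.

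Pnoc, the precursor of nociceptin, had the smallest p of this list. Its SAL pups ranged from 6.18 to 20.4 CPM with a median of 10.6, and its PNO pups from 12.1 to 19.6 CPM with a median of 15.2, so that all 6 PNO pups exceeded the SAL median while the ranges overlapped (log2 fold change 0.39, SE 0.23). Penk, the precursor of enkephalins, spread from 34.7 to 314.0 CPM in SAL and from 18.5 to 166.0 CPM in PNO, and was highest in SAL replicate 1 and PNO replicate 3, the library of each group with the highest sum of striatal markers. Pdyn, the dynorphin precursor, had medians of 24.2 and 28.6 CPM, and Pomc, the precursor of β-endorphin, 1.85 and 3.10 CPM, with log2 fold changes of -0.13 (SE 0.36) and 0.13 (SE 0.41).

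Downstream of the receptors, 8 of 31 transduction genes tested were higher and 23 lower in PNO, again with 0 at an unadjusted p under 0.05 and a median log2 fold change of -0.09. Without SAL replicate 6 the split was 15 higher and 16 lower. Gnai2, an inhibitory G protein α subunit, had medians of 233 CPM in SAL and 224 CPM in PNO (-0.09, interval from -0.23 to 0.04), an interval that lies within 1.5-fold. Rgs7 and Gnb5, which form a complex that speeds the shutdown of G proteins, had log2 fold changes of 0.16 (SE 0.09) and -0.18 (SE 0.12). Of 7 genes that the study related to pain, 4 were higher and 3 lower, with a median of 0.03 and 0 at an unadjusted p under 0.05.

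AMPA receptors carry most fast excitation in the cortex, and their subunits overlapped between the groups. Gria1 to Gria4 had log2 fold changes of -0.21, -0.10, 0.05 and 0.16, each with an interval that spans 0. Gria2, which makes the channel impermeable to calcium, had 433 to 665 CPM in SAL and 428 to 543 CPM in PNO, with an interval from -0.30 to 0.11. Of 18 tested members of the family, 7 were higher and 11 lower (median -0.05) and 1 was at an unadjusted p under 0.05, while without SAL replicate 6 the split was 9 and 9. It was Cacng5, an auxiliary protein of the TARP family, at 14.5 to 72.0 CPM in SAL and 9.86 to 21.5 CPM in PNO (-0.93, SE 0.33). The top value came from SAL replicate 6, without which the log2 fold change was -0.46 and the unadjusted p was above 0.05. Cacng7 and the scaffold Grip1 showed -0.19 (SE 0.09) and -0.29 (SE 0.15), again with the highest value in that pup.

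Other synaptic lists had 0 members at an unadjusted p under 0.05. NMDA receptor subunits were 2 higher and 5 lower with a median of -0.12, kainate and metabotropic receptors 4 and 10 with -0.03, and genes of GABA synthesis, transport and reception 8 and 11 with -0.04. Each of these directions turned without SAL replicate 6, to 5 higher and 2 lower, 11 and 3, and 14 and 5. Grin2a and Grin2b, the NMDA subunits exchanged as synapses mature, both had their highest value in SAL replicate 6, at 42.4 and 43.1 CPM beside SAL medians of 8.73 and 8.82 CPM. Presynaptic release genes were 15 higher and 11 lower (median 0.06), with Snap25 and Cplx1, of the fusion machinery, at 0.25 (SE 0.16) and 0.14 (SE 0.08). Postsynaptic scaffolds and adhesion molecules were 8 higher and 19 lower (median -0.06), and without SAL replicate 6 16 higher and 11 lower.

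Myelin genes leaned to 1 side. All 16 markers of mature oligodendrocytes were higher in PNO, with a median log2 fold change of 0.69 beside 0.0033 for all genes tested, and 3 of them, Gjb1, Ermn and Mog, had an unadjusted p under 0.05. None passed adjustment, and none had groups without overlap. Mog, a glycoprotein of the outer myelin surface, had 49.5, 68.8, 69.9, 73.0, 31.3 and 19.0 CPM in the SAL pups and 133, 64.0, 106, 93.3, 29.8 and 96.2 CPM in the PNO pups. In PNO, 4 of 6 pups lay above all SAL pups, while PNO replicates 2 and 5 lay within the saline range (log2 fold change 0.75, SE 0.34). Gjb1, the connexin that joins layers of myelin, ranged from 1.90 to 7.90 CPM and from 2.77 to 14.2 CPM (0.99, SE 0.39), and Ermn, a cytoskeletal protein of late oligodendrocytes, from 3.01 to 12.7 CPM and from 5.01 to 34.1 CPM (0.99, SE 0.41).

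The abundant structural proteins of myelin overlapped between groups. Mbp, which compacts the sheath, ranged from 687 to 5260 CPM in SAL and from 1370 to 6370 CPM in PNO (0.69, SE 0.41). Mobp and Mal differed by 0.90 (SE 0.43) and 1.00 (SE 0.47), and Myrf, the transcription factor that drives the myelin program, by 0.29 (SE 0.22). SAL replicate 6 was the lowest SAL pup for 16 of the 16 genes, PNO replicate 1 the highest PNO pup for 16, and PNO replicate 5 the lowest PNO pup for 15. The median of the list was 0.51 without SAL replicate 6, 0.47 without PNO replicate 1 and 0.88 without PNO replicate 5. The number of members at an unadjusted p under 0.05 was 1, 1 and 13 in these fits, and it was 9 without SAL replicate 4. Over all genes tested, the share higher in PNO at that p was 1.89% with all pups, and 1.01%, 4.1%, 3.51% and 4.32% in these 4 fits in turn. In IUO the medians of Mog and Mbp were below those of both other groups, at 28.4 CPM for Mog and 1360 CPM for Mbp, beside 59.2 and 2840 CPM in SAL.

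Sox10 and other SOX factors activate myelin genes through sites with the core ACAAAG, and 13 promoters of 12 of the 16 genes were matched in the RefSeq table of GRCr8. The promoters of Opalin and Mag, which hold it 2 times and 1 time, are shown on the strand of the gene, with capitals marking ACAAAG or its reverse complement CTTTGT. They lie at chr1:249858141-249858440 (Opalin, minus strand) and chr1:95290995-95291294 (Mag, minus strand).
Opalin: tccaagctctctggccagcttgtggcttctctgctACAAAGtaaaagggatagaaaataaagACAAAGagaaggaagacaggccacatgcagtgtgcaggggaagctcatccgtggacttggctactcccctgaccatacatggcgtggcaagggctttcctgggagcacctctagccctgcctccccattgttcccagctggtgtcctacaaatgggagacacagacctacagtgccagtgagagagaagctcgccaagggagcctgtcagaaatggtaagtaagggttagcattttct
Mag: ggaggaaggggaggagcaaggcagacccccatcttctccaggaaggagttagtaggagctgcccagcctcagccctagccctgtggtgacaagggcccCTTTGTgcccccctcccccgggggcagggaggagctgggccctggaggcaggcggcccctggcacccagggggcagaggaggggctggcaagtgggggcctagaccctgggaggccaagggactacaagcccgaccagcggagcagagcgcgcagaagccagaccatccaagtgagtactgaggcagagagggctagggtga
Of the 13 promoters, 5 (38.5%) held the core, that of Mobp with 8 matches, beside 18.8% of all 33469 promoters. The windows were searched on both strands for the GCGTG core, for the GC box, for TAATTA, a core of homeodomain factors, and for the CCAAT box, and no match overlaps the capitals. Opalin, a glycoprotein particular to oligodendrocytes, had 6.88 to 32.7 CPM in SAL and 10.9 to 72.1 CPM in PNO (0.79), and Mag, the inner adhesion molecule of the sheath, had 64.5 to 317.0 CPM and 115 to 559 CPM (0.52).

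Precursor markers lay closer together. All 10 markers of oligodendrocyte precursors and committed cells were higher in PNO, but the median was 0.18, and 1 gene, Neu4, a sialidase, had an unadjusted p under 0.05. Without SAL replicate 6 the count was 8 of 10 and without PNO replicate 1 it was 6 of 10. Neu4 was at 0 in 2 SAL pups and 1 PNO pup and reached 1.64 and 3.40 CPM (log2 fold change 1.97, SE 0.91). Enpp6, which marks newly differentiating oligodendrocytes, had medians of 16.1 and 17.3 CPM (0.48), and Olig1 medians of 154 and 183 CPM (0.28).

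**Figure D4:**
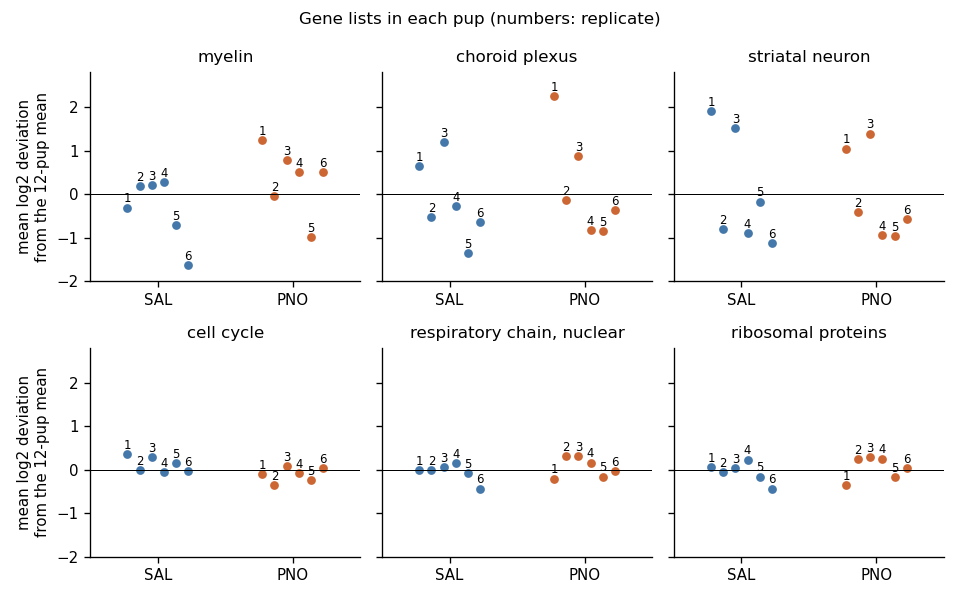
Points give, for each pup, the mean over a list of the log2 CPM minus the mean of the 12 pups, with replicate numbers as labels. Myelin genes are lowest in SAL replicate 6 and highest in PNO replicate 1, choroid plexus genes are highest in PNO replicate 1 and SAL replicate 3, and striatal genes are high in replicates 1 and 3 of both groups.

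Markers of neighbouring tissue varied widely between pups of 1 group. The 12 choroid plexus markers, 0 of them at an unadjusted p under 0.05, were all higher in PNO (median 0.58), and PNO replicate 1 was the highest PNO pup for 11 of them. Ttr, transthyretin, ranged from 2.64 to 525 CPM in SAL and from 1.33 to 938 CPM in PNO (1.05, SE 1.49). Without PNO replicate 1 the list had 5 higher and 7 lower genes and a median of -0.22. The 14 striatal projection neuron markers, again 0 at an unadjusted p under 0.05, were all lower in PNO (median -0.27). Summed over the list, SAL replicates 1 and 3 had 2400 and 2080 CPM and PNO replicates 1 and 3 had 1170 and 2010 CPM, while the other 8 pups had between 390 and 754 CPM. Without SAL replicate 1, 11 of the 14 were higher in PNO and the median was 0.10, and without SAL replicate 3 the median was -0.10. Ppp1r1b (DARPP-32) and the dopamine receptor gene Drd2 show the spread, from 31.9 to 579 CPM and from 4.29 to 58.8 CPM in SAL alone.

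Markers of cortical neurons did not separate the groups. Of 17 gene entries for pyramidal cells and layers, none at an unadjusted p under 0.05, 6 were higher and 11 lower (median -0.07). Slc17a7 differed by 0.17 (interval from -0.21 to 0.55) and Fezf2, of deep projection neurons, by 0.13 (from -0.37 to 0.63). Interneuron markers were 6 higher and 11 lower, and Dlx1 and Dlx2 were the ones at an unadjusted p under 0.05, with 8 higher and 9 lower without SAL replicate 6. Pvalb, the calcium buffer of fast-spiking basket cells, which rises in the postnatal cortex, had 3.42 to 24.6 CPM in SAL and 10.4 to 33.5 CPM in PNO (0.78, SE 0.39). Its lowest value was in SAL replicate 6, without which the log2 fold change was 0.58. Sst and Vip, of the other main classes, differed by 0.27 (SE 0.20) and 0.35 (SE 0.24). Kcnc2, the fast potassium channel of the same basket cells, and Kcnn2, a calcium-activated potassium channel, were the 2 of 22 potassium channels at an unadjusted p under 0.05, with 0.30 (SE 0.11) and 0.22 (SE 0.09), while the list as a whole was 7 higher and 15 lower, and 16 and 6 without SAL replicate 6.

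Genes of energy metabolism and protein synthesis leaned higher by small amounts. Nuclear genes of the respiratory chain were higher in PNO in 35 of 36 entries with a median of 0.13, the 12 mitochondrially encoded genes in 12 of 12 with 0.13, and ribosomal protein genes in 40 of 42 with 0.11. Few members were past an unadjusted p of 0.05, namely Uqcrc2 (0.13, SE 0.06) and Ndufs4 (0.17, SE 0.08) of the respiratory complexes and Rpl32 (0.55, SE 0.20), whose SAL pups had 13.7 to 28.8 CPM and PNO pups 24.0 to 37.7 CPM. Ndufa10, described above, is not a member of the respiratory list. SAL replicate 6 was the lowest SAL pup for 33 of the 36 respiratory genes, 12 of the 12 mitochondrial genes and 40 of the 42 ribosomal genes. Without it, 34 of 36, 8 of 12 and 33 of 42 were higher, and the medians were 0.06, 0.02 and 0.02. Reads of ribosomal proteins can be divided among near-identical copies, so that a single entry such as Rpl32 is uncertain.

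The fold change also moved with gene length as listed by the authors. When the genes were divided by length into 10 groups, the shortest (up to 858 bases) had a median log2 fold change of 0.084 and the longest (from 4835 bases) one of -0.085. Among the longest genes, 94 were lower and 10 higher in PNO at an unadjusted p under 0.05, of 1571, while among the shortest the numbers were 25 and 26. Relative to the 12-pup mean, the longest group lay at 0.312 in SAL replicate 6 and 0.175 in PNO replicate 1, and the shortest at -0.358 and -0.212. PNO replicate 5 and SAL replicate 5 lay on the same side by less. Their longest group was at 0.092 and 0.037 and their shortest at -0.101 and -0.065. Other pups lay on the opposite side, with the longest group at -0.19 in PNO replicate 2, -0.167 in PNO replicate 3, -0.119 in PNO replicate 4 and -0.104 in SAL replicate 4, and the shortest at 0.228, 0.208, 0.164 and 0.176. Without SAL replicate 6 the medians were 0.03 and -0.012, and without PNO replicate 1 they were 0.139 and -0.126. The part of RNA quality or library preparation in this gradient was not tested. The nuclear respiratory and ribosomal lists above, with medians of 0.13 and 0.11, varied between pups much as the shortest group did. Ribosomal genes lay at -0.44 in SAL replicate 6 and -0.35 in PNO replicate 1. In PNO replicates 2 and 3 they lay at 0.24 and 0.29. The part of gene length in the lean of these lists was not tested.

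**Figure D5:**
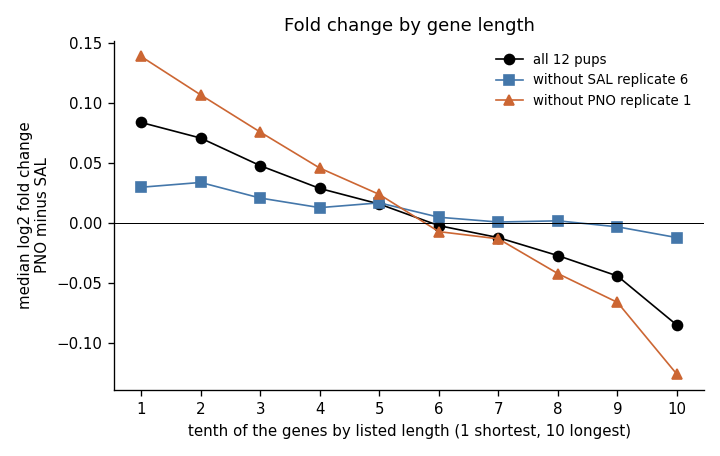
The x axis orders the 15703 genes into 10 groups by listed length and the y axis gives the median log2 fold change of PNO over SAL. The line for all 12 pups descends from 0.084 to -0.085, the line without SAL replicate 6 from 0.03 to -0.012, and the line without PNO replicate 1 from 0.139 to -0.126.

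Genes of dividing cells were lower in PNO in 14 of 15 tested members, with a median of -0.25, and 1 of them, the replication licensing factor Mcm2, had an unadjusted p under 0.05. Its SAL pups ranged from 8.45 to 12.6 CPM and its PNO pups from 7.54 to 9.58 CPM, all below the SAL median of 10.2 (log2 fold change -0.26, SE 0.11). Cenpf, of the kinetochore, and Mcm5 differed by -0.41 (SE 0.20) and -0.25 (SE 0.13), and Mki67 and Top2a, general markers of cycling cells, by -0.20 (SE 0.15) and -0.27 (SE 0.22). The median was -0.25 without SAL replicate 6 and -0.20 without SAL replicate 1, which was the highest SAL pup for 8 of the 15. It was -0.19 without PNO replicate 2, the lowest PNO pup for 10 of the 15, and 0 members had an unadjusted p under 0.05 without either of these 2 pups. SAL replicate 1 also had the highest sum of striatal markers, and with the striatal score as a covariate the median was -0.23 and 14 of 15 were lower. That score covers striatal markers only, and the part of tissue make-up in this lean was not tested. Tnc, tenascin-C, a matrix protein of glial precursors, stood out among 14 genes of the extracellular matrix and perineuronal nets, with 50.5 to 110 CPM in SAL and 33.7 to 58.6 CPM in PNO (-0.56, SE 0.16), and -0.40 without SAL replicate 6. The list was 5 higher and 9 lower, and 7 and 7 without that pup.

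The endothelial and VEGF genes named here overlapped between groups. Of 18 endothelial and mural markers, 5 were higher and 13 lower with a median of -0.11. Kdr, the main VEGF receptor, had 23.4 to 42.3 CPM in SAL and 25.5 to 32.9 CPM in PNO (-0.25, SE 0.11), and Tie1, an orphan receptor of the same cells, differed by -0.17 (SE 0.08). Flt4, the receptor for VEGF-C, had 3.14 to 4.29 CPM and 2.22 to 3.43 CPM (-0.35, SE 0.13), with all PNO pups below the SAL median of 3.67. Of the 10 VEGF ligands and receptors, 5 were higher and 5 lower. The ligand Vegfa had medians of 110 and 97.2 CPM (-0.08, interval from -0.29 to 0.14), and Vegfb medians of 12.5 and 19.6 CPM (0.40, SE 0.20).

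Among glia and immune cells, 11 of 14 microglia markers were higher (median 0.08), while P2ry12, the purinergic receptor of resting microglia, was lower, at 14.0 to 23.8 CPM in SAL and 9.60 to 18.8 CPM in PNO (-0.37, SE 0.16). Tyrobp and Ctss, of the phagocytic and lysosomal side, had 0.30 (SE 0.15) and 0.26 (SE 0.15). Astrocyte markers were 11 higher and 2 lower with a median of 0.04, but 5 and 8 without normalization of library size, a setting that moved the median of all genes to -0.042. Of 16 tested cytokine and TLR4 pathway genes, 7 were higher and 9 lower, and Il1rl2, a receptor of the IL-36 family, had an unadjusted p under 0.05 (-0.66, SE 0.30) at 0.677 to 1.12 CPM in SAL and 0.451 to 0.896 CPM in PNO. Meningeal fibroblast markers were 7 and 7 and blood cell markers 3 and 3, with medians of 0.05 and 0.01.

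Genes that report recent activity and stress also overlapped between groups. Immediate early genes were 5 higher and 15 lower with a median of -0.11 and 0 at an unadjusted p under 0.05, and without SAL replicate 6 they were 13 higher and 7 lower. Fosb and Egr3, transcription factors induced by firing, differed by -0.89 (SE 0.46) and -0.55 (SE 0.29), and by -0.18 and -0.34 without that library, in which both had their highest SAL value. Of the stress axis, 7 entries were higher and 4 lower, and Hsd11b1, which regenerates active glucocorticoid inside cells, had 18.0 to 42.0 CPM in SAL and 30.0 to 59.7 CPM in PNO (0.48, SE 0.18). Tsc22d3, a target of the glucocorticoid receptor, differed by 0.19 (SE 0.11). The neurotrophin Bdnf had medians of 17.8 and 18.3 CPM (0.14, interval from -0.28 to 0.56), and clock genes were 9 and 9. Genes of cholesterol synthesis were 9 higher and 13 lower with a median of 0 to 2 decimals, and 4 and 18 without SAL replicate 6, and chaperones were 11 higher and 3 lower with a median of 0.07. Monoamine receptors and enzymes were 10 and 13 with a median of -0.04.

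The study drew its own genes for the comparison of saline and PNO from these same samples, so that their direction is not independent evidence. The list used here holds only those that the study placed in ontology terms, and is not the whole of its selection. Of 19 entries tested, 8 were higher and 11 lower (median -0.25), and 1 of the higher and 6 of the lower were at an unadjusted p under 0.05, beside 1.89% higher and 2.6% lower of all genes tested. Mesp1, a transcription factor of mesoderm, was the higher one, at 0.252 to 0.677 CPM in SAL and 0.478 to 1.12 CPM in PNO (1.01, SE 0.31). Bnip2, an adaptor of apoptosis and cell shape, had 10.1 to 16.8 CPM and 8.17 to 12.6 CPM (-0.39, SE 0.13), and the protease Adamts20 4.98 to 9.77 CPM and 3.72 to 5.98 CPM (-0.51, SE 0.17). The other lower genes were Epb41l5, Flt4, Kdr and Il1rl2. Without SAL replicate 6, in which Bnip2, Adamts20 and Epb41l5 were highest, 3 of the list were lower and 1 higher at an unadjusted p under 0.05.

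Set beside the in utero group, the leading genes differed in where the IUO median lay. PNO and IUO use the same SAL pups as reference, so that their differences from SAL share that error and are not compared by a test here. Abcg2 had medians of 4.59, 9.20 and 9.10 CPM in SAL, PNO and IUO, Ghdc 7.11, 14.8 and 13.9 CPM, and P3h4 10.2, 13.5 and 13.3 CPM, with IUO close to PNO. Gal3st3 had 56.4, 67.0 and 55.8 CPM, Gpc2 5.04, 3.65 and 5.41 CPM, Flna 117, 84.9 and 119 CPM, and Mog 59.2, 94.7 and 28.4 CPM, with IUO at or beyond SAL on the side away from PNO.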

How the data were processed

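RNA of the PFC was sequenced from 18 Sprague Dawley pups at P14, 6 each in SAL, PNO and IUO, on 1 flow cell. The authors deposited expected counts, TPM and FPKM per gene for each pup. The deposited expected counts are estimates that need not be whole, and they were rounded to whole numbers. The deposited TPM values, which are scaled by gene length, were used only to compare levels between genes, and the deposited FPKM values were not used. The aligner, quantifier and genome build are not given in the sources used here.

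Genes passing filterByExpr of edgeR 4.0.16 (R 4.3.3) were normalized by TMM and fitted by edgeR's quasi-likelihood test with the 3 groups in 1 model, and p-values were adjusted over all 15703 genes by the Benjamini-Hochberg method. A call needed an adjusted p under 0.05 and at least 1.5-fold. Unadjusted p-values printed without another name come from this fit. Totals ran from 18381819 to 25649851 counts per SAL or PNO pup and from 18643283 to 26084780 per IUO pup. DESeq2 1.42.0, limma 3.58.1 (voom), other scalings and filters, marker covariates, the replicate block and leaving out each pup were alternatives, and the code was tested on simulated data.

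Named genes were the 12 with the smallest p in each direction at a mean of at least 1 CPM in SAL or PNO and with a gene symbol, all opioid receptor, opioid peptide, AMPA and VEGF genes, up to 3 of each other list, and up to 6 without overlap in each direction. Tbx21, Eomes, Doc2g, Dcx and members of a list beyond its first 3 by p, such as Mbp, Ttr and Mki67, were chosen after their values were seen. The comparison and the gene lists were chosen with earlier results of these data known. No pair of pups within SAL or within PNO had identical counts, and other pairs were not compared. Promoters came from RefSeq, GRCr8. Some genes of the lists are not reported here. The labels used here name neither litter nor sex of a pup.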

Additional observations from a re-analysis of the deposited data

Results flagged for a closer look

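Of 330 sets of 6 pups, 1 named gene in 1 group each, 22 held a pup whose gap to the nearest other pup was past the 95% critical value of Dixon for its share of the range, on the log2 scale. Chance flags about 1 in 20 groups. Values are CPM of the pup that stood apart, beside that of its nearest neighbour.

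A pup stood above its group for Cbx2 (PNO replicate 2, 5.27 beside 3.69), Oprk1 (PNO replicate 1, 7.75 beside 3.21), Grin2b (SAL replicate 6, 43.1 beside 11.2), Homer2 (SAL replicate 6, 23.7 beside 12.3), Ntrk2 (SAL replicate 6, 501.0 beside 321.0) and Xbp1 (PNO replicate 2, 64.1 beside 55.0). The same held for Enpp2 (SAL replicate 3, 89.1 beside 61.3), Sostdc1 (PNO replicate 1, 8.05 beside 2.51), Prlr (PNO replicate 1, 0.902 beside 0.316), Npy2r (PNO replicate 1, 4.02 beside 1.13), Mrrf (PNO replicate 3, 22.2 beside 20.8) and Slc38a6 (SAL replicate 4, 5.74 beside 5.23). PNO replicate 1 accounted for 4 of these and SAL replicate 6 for 3.

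A pup stood below its group for Tcta (SAL replicate 6, 50.9 beside 58.9), Gripap1 (SAL replicate 6, 122.0 beside 134.0), Cacng8 (SAL replicate 4, 31.3 beside 43.1), Vegfb (PNO replicate 5, 11.8 beside 19.1), Cenpf (SAL replicate 4, 4.79 beside 6.94) and Nr4a2 (PNO replicate 3, 17.4 beside 46.6). The same held for Foxp1 (SAL replicate 4, 9.48 beside 20.2), Neu4 (PNO replicate 6, 0.0 beside 1.65), Aldoc (PNO replicate 5, 427.0 beside 589.0) and Helz2 (SAL replicate 2, 2.38 beside 2.85). SAL replicate 4 accounted for 3 of these and SAL replicate 6 for 2.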

How the results depend on the processing

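At the adjusted threshold 0 genes were called by edgeR under every alternative run, with smallest adjusted p between 0.252 and 1.0 over the fits that left out a pup, and DESeq2 called 1 gene, Frmd7 (log2 fold change -3.26, adjusted p = 0.0281). The 65 higher and 130 lower genes at an unadjusted p under 0.05 and 1.5-fold became 244 and 304 with no filter on low counts and 297 and 409 with no fold threshold. With at least 1 CPM in 6 pups they were 43 and 101. With weights for the quality of each sample, limma-voom gave 118 and 122, so that 49.2% were higher in place of 33.3%, and with no filter the share was 44.5%. Leaving out 1 pup gave 53 to 181 higher and 64 to 271 lower genes, and 22 to 69 genes whose groups did not overlap in place of 17, since fewer pups have to be apart. Leaving out SAL replicates 1 and 6 together, chosen after seeing the data like the Eif2s3y covariate, gave 43 lower genes and reversed Cdhr1 (log2 fold change 0.04).

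Without the IUO pups in the model, 462 genes of 15324 were at an unadjusted p under 0.05 in place of 706, and 50 were higher and 93 lower with 1.5-fold as well (smallest adjusted p 0.967). The replicate block, fitted on these same 12 pups and 15324 genes, gave 67 higher and 106 lower genes and a smallest adjusted p of 0.865, to be read beside that fit. The pups were not treated as paired, because the numbers share no stated litter or day and the correlations of same-numbered pups were not all over 0.1. They ran from -0.06 to 0.49, and 4 of the 6 were over 0.1. As a hint from the data, 6 of 12 pups correlated best with their own number. When pups were permuted only within same-numbered pairs, the group share of distance, 7.79%, had an exact p of 0.375 over 64 divisions. Of 54 named genes with an unadjusted p under 0.05, 53 kept their sign in every alternative, Cdhr1 being the exception. Many of these were named for a small p in the same pups, so that a kept sign was likely in advance. With Cdhr1 included, 36 of the 165 named genes changed sign in at least 1 alternative. The planned covariate Xist could not be fitted because it is not listed among the genes used here. Whether depth or the spread between pups sets the wide interval of Oprm1, near 1 CPM, was not tested.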
